A study of Homo sapiens with 6 samples.

Results

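The COP9 signalosome is the protein complex that removes the ubiquitin-like protein NEDD8 from cullins, the scaffolds of the largest family of ubiquitin ligases. The 9 genes described here, chosen by name, encode its classical subunits: GPS1, COPS2, COPS3, COPS4, COPS5, COPS6, COPS7A, COPS7B and COPS8. They stand beside 12406 genes tested in all. The family was picked from this data set with the signal differences between NME2-depleted and control arrays already known, so those differences are given for its members as a description, without p-values. All probe sets that the array annotation assigned to one of these symbols alone were taken, which gave 19. Each probe set consists of short oligonucleotides on the array that together report the level of a transcript. Of the 19, 15 passed the filter on dim signals, which kept probe sets whose mean log2 signal corresponded to at least 71.7, and 4 did not.

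The arrays measured messenger RNA of A549 cells, a human lung adenocarcinoma line. Cells of the NME2-depleted group (3 arrays) were transiently transfected with small interfering RNA (siRNA) directed at NME2, which encodes a nucleoside diphosphate kinase also described as a DNA-binding factor and a metastasis suppressor, and cells of the control group (3 arrays) with control siRNA duplexes. Both groups were of the same line, and depletion of the transcript was incomplete. The series text calls the replicates biological but does not describe separate cultures, so p-values measure only the spread between these samples, which may be technical.

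Each cullin ligase joins a substrate receptor to a RING protein that recruits ubiquitin-conjugating enzymes. Attachment of NEDD8 to the cullin activates the ligase, and its removal by the signalosome lets the exchange factor CAND1 bind and receptors be replaced. The signalosome is built from subunits with a PCI domain, which form its scaffold, and a pair with an MPN domain: COPS5, the metalloprotease that cuts NEDD8 off, and COPS6, its catalytically inactive partner. The same architecture is found in the proteasome lid and the translation factor eIF3.

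The siRNA target was checked first. The probe set for NME2, which also matches the read-through transcript NME1-NME2, had signals of 1920.4, 3675.9 and 3215.7 on the NME2-depleted arrays and 17861.6, 19388.9 and 21044.5 on the control arrays. Its log2 difference, NME2-depleted minus control, was -2.78 (SE 0.19, limma adjusted p = 0.00032), with the smallest exact permutation p that 3 against 3 arrays allow (two-sided p = 0.1). Over the whole array 108 of 27307 tested probe sets passed an adjusted p of 0.05 (32 higher, 76 lower, or 20 higher and 107 lower after median centring). Median array signals lay between 75.7 and 85.2. The interferon-induced transcript MX1, a gene chosen after its values were seen, was lower on every NME2-depleted array than on any control array. Its signals were 144.6, 144.9 and 112.3 on the NME2-depleted arrays and 3299.2, 531.3 and 697.8 on the control arrays. The log2 difference was -3.01 (SE 0.51, limma adjusted p = 0.0379), and the control array of replicate 1 was the highest. RNA quality, as the ratio of 3' to 5' signal of ACTB, was 1.326 to 1.396 on the NME2-depleted arrays and 1.198 to 1.305 on the control arrays. The same ratio of GAPDH was 0.9848 to 1.064 on the NME2-depleted arrays and 0.9696 to 1.021 on the control arrays. All 8 epithelial and A549 markers were measured, with summed signals of 118800 to 137700 on NME2-depleted and 121000 to 141200 on control arrays. Within that sum, carried by the brightest markers, the groups did not overlap for EPCAM (1.64-fold higher in NME2-depleted cells, limma adjusted p = 0.0884), CDH1 (1.16-fold higher, limma adjusted p = 0.324) and KRT8 (1.18-fold lower, limma adjusted p = 0.209). Leukocyte markers (3 of 6 tested) summed to 404.8 to 557.8 on NME2-depleted and 473.2 to 552.9 on control arrays. This sum, like the fibroblast and endothelial sums below, includes markers too dim to test. PTPRC, the pan-leukocyte marker, was too dim to test, but CD14 read 191.9 to 305.9 and 273.4 to 349.5. Fibroblast markers (3 of 6 tested) summed to 813.6 to 1086 on NME2-depleted and 765.4 to 1005 on control arrays, with COL1A1 at 328.4 to 586 and 361.3 to 498.6. Endothelial markers (1 of 5 tested) summed to 286.4 to 394.6 on NME2-depleted and 212.4 to 314.1 on control arrays. VWF and CDH5 were too dim to test, and PECAM1, the tested one, read 231.2 to 252 and 157.8 to 236.1. None of these markers passed the limma threshold, and their part in the results below was not tested.

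COPS6, the inactive MPN partner of the catalytic subunit, had the most negative differences of the family, by both of its probe sets. The brighter probe set, 201405_s_at, gave signals of 3544.9, 3665.6 and 3200.3 on NME2-depleted arrays, against 4801.9, 5207.7 and 5381.1 on control arrays. The means were 3470 ± 241 in NME2-depleted cells and 5130 ± 297 in control cells (SD, n = 3 each), a log2 difference of -0.56 (SE 0.08), or 1.48-fold lower. The second probe set, 213504_at, read 1501.3, 1538.2 and 1281.8 on NME2-depleted arrays and 2077.3, 2103.1 and 2098.1 on control arrays. With means of 1440 ± 139 in NME2-depleted cells and 2093 ± 13.7 in control cells (SD, n = 3 each), its log2 difference was -0.54 (SE 0.09), or 1.46-fold lower. In both probe sets every NME2-depleted array lay below every control array, and replicate 3 was the lowest of the depleted arrays. For description only, 2 of 15 tested probe sets of the family, those of COPS6, were past the threshold as lower, against a background of 0.278% of all tested probe sets. These are the values the family was chosen on, so nothing is read from that count, which was 1 with NME2-depleted replicate 2 or control replicate 1 left out and 0 with any of the other 4 arrays left out. With each array left out in turn, the log2 differences of both stayed between -0.61 and -0.46. Without control replicate 1, the array with the highest MX1 signal, they were -0.61 and -0.55. Control replicates 2 and 3 also had MX1 signals (531.3 and 697.8) above every NME2-depleted array (at most 144.9). Leaving out replicate 1 therefore does not remove the MX1 difference, and its relation to that of COPS6 was not tested. The RNA quality ratio of ACTB was higher on every NME2-depleted array than on any control array, while that of GAPDH overlapped between the groups, and their part in the COPS6 difference was not tested.

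**Figure D1:**
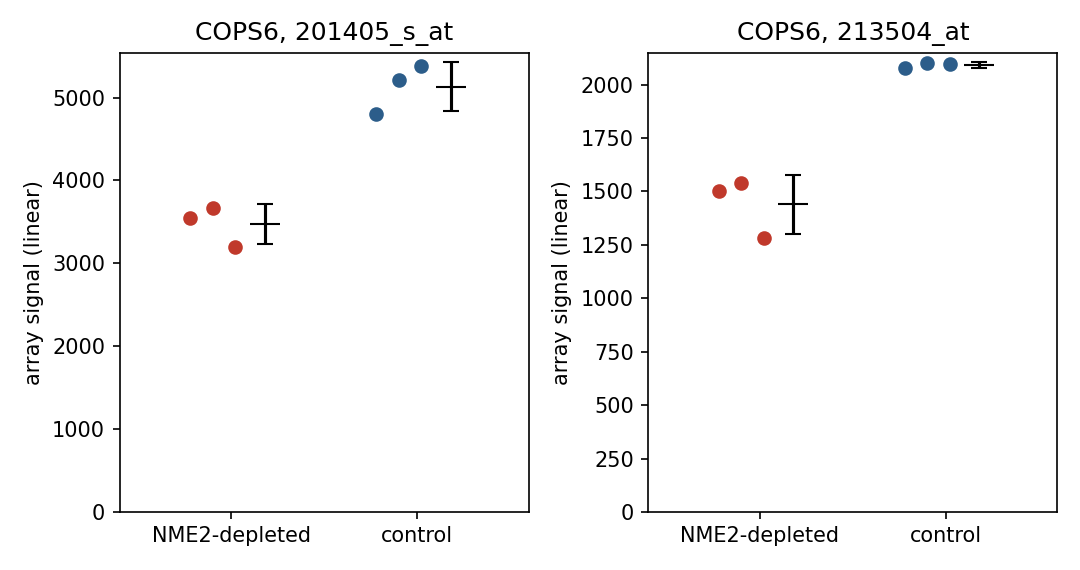
Signal of both COPS6 probe sets on each array (vertical axis, linear array signal from 0; left panel 201405_s_at, right panel 213504_at), with NME2-depleted arrays in red and control arrays in blue. Points are single arrays and black bars the mean ± SD (n = 3 per group). All NME2-depleted points lie below all control points in both panels.

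The window around the RefSeq start of COPS6 (chr7:100088719-100089018, GRCh38.p14, plus strand) is shown because COPS6 carried the difference, together with those of COPS7A (chr12:6723796-6724095, plus strand) and COPS3 (chr17:17281197-17281496, minus strand), which hold the same ETS-type core (for these 2 genes, the first of their listed starts). Each runs 5′ to 3′ from 250 bases before the annotated start to 50 bases after it, and capitals mark matches to CGGAAG or ATGGCGGC on either strand.
COPS6: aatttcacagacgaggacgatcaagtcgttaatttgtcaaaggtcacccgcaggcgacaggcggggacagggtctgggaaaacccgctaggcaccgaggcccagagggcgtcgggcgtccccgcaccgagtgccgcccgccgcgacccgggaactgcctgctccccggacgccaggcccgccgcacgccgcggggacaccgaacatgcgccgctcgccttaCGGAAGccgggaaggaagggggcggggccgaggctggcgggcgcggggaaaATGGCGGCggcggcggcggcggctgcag
COPS7A: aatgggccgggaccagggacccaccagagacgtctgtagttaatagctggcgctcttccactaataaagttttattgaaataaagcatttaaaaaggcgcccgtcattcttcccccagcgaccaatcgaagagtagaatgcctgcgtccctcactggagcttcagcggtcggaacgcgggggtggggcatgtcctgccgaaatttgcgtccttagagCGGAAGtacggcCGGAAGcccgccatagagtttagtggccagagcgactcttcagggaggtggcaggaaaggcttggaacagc
COPS3: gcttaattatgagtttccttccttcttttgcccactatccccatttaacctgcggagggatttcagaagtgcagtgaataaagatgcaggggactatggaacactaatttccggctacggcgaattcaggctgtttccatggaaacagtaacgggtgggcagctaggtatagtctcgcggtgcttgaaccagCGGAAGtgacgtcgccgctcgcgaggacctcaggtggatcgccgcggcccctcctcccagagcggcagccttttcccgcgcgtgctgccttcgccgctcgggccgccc

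Windows were available for 8 of the 9 genes. The COPS6 window was rich in CpG, with 42 CpG dinucleotides and 72% G+C, and 5.85% of the 35116 RefSeq windows held at least as many (median 14). It held 1 CGGAAG, the core bound by ETS factors, 29 bases before the start. CGGAAG or its complement occurred in 19.5% of all windows. A copy of ATGGCGGC, a YY1-type element, lay 22 bases after the start and was found in 3.0% of windows. COPS4, which was level between the groups, held the same element 42 bases after its start, and the other members' windows had none. The COPS6 window also held 2 GC boxes (GGGCGG, in 45.0% of windows), and none of its matches overlapped another. In COPS7A 2 ETS cores stood 33 and 21 bases before the start, and in COPS3 1 stood 58 bases before it. The ETS core also occurred at the second start of COPS3, the third of GPS1 and the second of COPS7B, while the second start of COPS7A, the other starts of GPS1 and COPS7B, and the windows of COPS2, COPS4 and COPS8 had none. No window of the 8 genes matched TATAAA, which 11.5% of all windows contain. Matches of this kind are a description of letters and not of bound sites.

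COPS5, the catalytic subunit that COPS6 pairs with, differed little between the groups. Its signals were 4947.7, 5227 and 4546.1 on NME2-depleted arrays and 4763.2, 4936.7 and 4532.4 on control arrays, so the groups overlapped. The log2 difference was 0.05 (SE 0.07), and -0.001 after median centring of the arrays. The pair of MPN subunits was uneven in these readings, with COPS6 lower and COPS5 close to 0.

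The PCI subunits fill the 6 positions of the scaffold. GPS1, also called subunit 1, read 2185.6, 2065.4 and 1848.8 on NME2-depleted arrays and 2114.3, 2164.4 and 2571 on control arrays. Its log2 difference was -0.17 (SE 0.10), with overlapping groups, 1 control array (replicate 3) being the highest, and it was -0.08 without that array and -0.10 without NME2-depleted replicate 3. COPS3 read 3300.6, 3517.5 and 3261.4 on NME2-depleted arrays and 3995.7, 3690.4 and 3611.9 on control arrays, a difference of -0.16 (SE 0.07). The groups of COPS3 did not overlap, but the nearest arrays were close. COPS4 was level, at 2282.6, 2300 and 2255.3 on NME2-depleted arrays and 2261.4, 2400.2 and 2121.5 on control arrays, with a log2 difference of 0.01 (SE 0.08). After median centring the COPS4 difference took the opposite sign, as did that of COPS5.

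COPS2, a subunit also known as the transcriptional corepressor TRIP15 or Alien, gave 2 different readings. Its brighter probe set, 202467_s_at, had signals of 3632.5, 3739.3 and 3508.1 on NME2-depleted arrays and 3716.1, 3803.5 and 3352.4 on control arrays, a log2 difference of 0.00 (SE 0.07) that was negative after median centring. Its dimmer probe set, 209838_at, had 449.5, 545.6 and 432.7 on NME2-depleted arrays and 400.3, 321.6 and 315 on control arrays. Here all NME2-depleted arrays lay above all control arrays, with a log2 difference of 0.46 (SE 0.15). The 2 probe sets thus disagreed, and signals of separate probe sets cannot be compared in level.

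COPS7A and COPS7B are paralogues that occupy the same position in the complex. COPS7A read 1549.4, 1597.6 and 1475.6 on NME2-depleted arrays and 1516.8, 1547.9 and 1662.8 on control arrays, with a log2 difference of -0.03 (SE 0.08). COPS7B, by its brighter probe set 219997_s_at, read 683.6, 574.2 and 553.4 on NME2-depleted arrays and 778.5, 627.5 and 731.7 on control arrays. Its difference was -0.24 (SE 0.13), and the groups overlapped. The second COPS7B probe set, 225696_at, which stands for the gene when probe sets shared between transcripts are left out, differed by -0.10 (SE 0.20), with NME2-depleted replicate 3 (142) below the other 5 arrays (190.8 to 213.7).

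COPS8, the smallest of the classical subunits, was read by 4 tested probe sets. The brightest, 202141_s_at, had 5527.2, 5659 and 5257 on NME2-depleted arrays and 5421.1, 5074.7 and 5227.6 on control arrays, a log2 difference of 0.06 (SE 0.07). The other 3 differed by -0.03 (202142_at, SE 0.11), -0.12 (202143_s_at, SE 0.08) and -0.03 (214260_at, SE 0.19), and the groups overlapped in all 4. The 4 probe sets that were too dim to test were 237649_at of COPS4, 243628_at of COPS7B, and 236204_at and 243152_at of COPS8. Their signals on single arrays ran from 2.2 to 55.5 in NME2-depleted cells and from 3.3 to 81.5 in control cells.

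**Figure D2:**
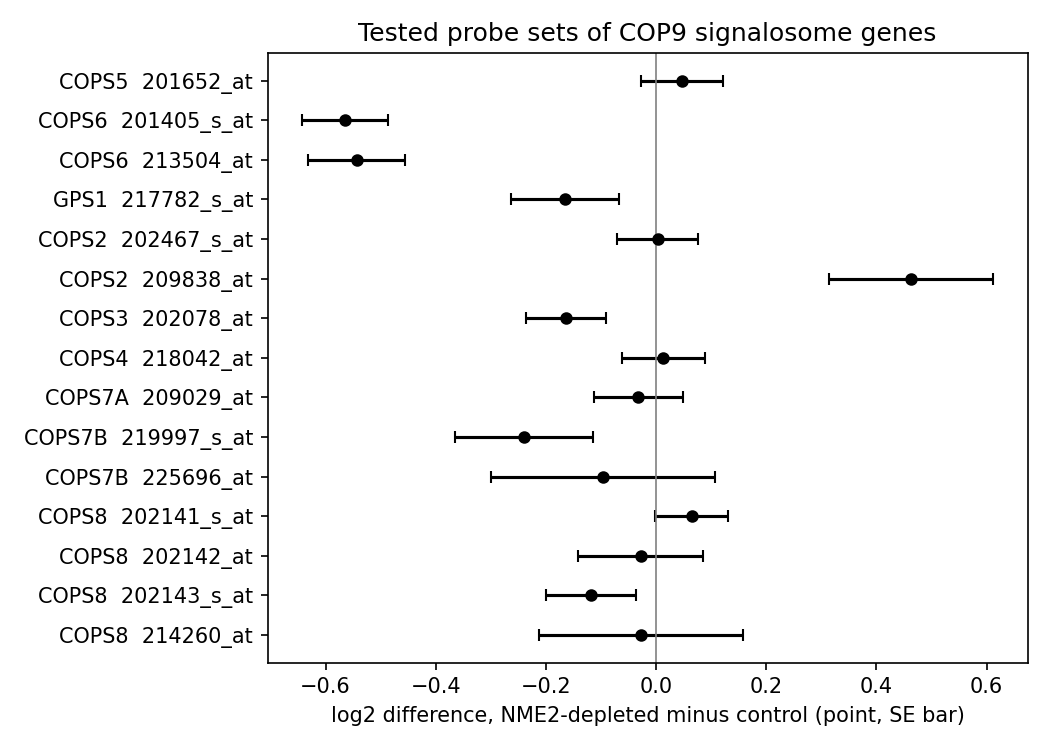
Log2 difference, NME2-depleted minus control, of the 15 tested probe sets (horizontal axis; points with bars of 1 SE; rows ordered by MPN subunits first, then PCI subunits). The 2 COPS6 probe sets lie near -0.55, COPS2 209838_at lies at 0.46, and the remaining 12 lie between -0.24 and 0.06.

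Across the family, 10 of the 15 tested probe sets had a negative difference and 5 a positive one, with a median of -0.03. Of all tested probe sets 47.5% were negative, with a median of 0.01. The arrays of the groups did not overlap for 4 of the 15 (2 of COPS6, 1 of COPS3, and COPS2 209838_at), against a background of 18.6% of all tested probe sets. By each gene's brightest probe set 5 of the 9 genes were negative and 4 positive, over a range of -0.56 to 0.06. The 8 genes other than COPS6 split into 4 negative and 4 positive, with a median of -0.01, or into 7 negative and 1 positive after median centring of the arrays. Centring also moved the median of all tested probe sets, from 0.01 to -0.0373, so the changed split is not read as a trait of the members.

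COPS6 stood away from its partners on each depleted array. Set over the mean of the control arrays, COPS6 (201405_s_at) stood at log2 values of -0.53, -0.48 and -0.68 on the NME2-depleted arrays and -0.09, 0.02 and 0.07 on the control arrays. The median of the other 8 genes was -0.01, 0.02 and -0.08 on the NME2-depleted arrays and 0.02, -0.03 and -0.03 on the control arrays. The lowest of these 8 was -0.19, -0.31 and -0.36 on the 3 NME2-depleted arrays, above COPS6 each time. On the control arrays COPS6 lay inside their span.

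**Figure D3:**
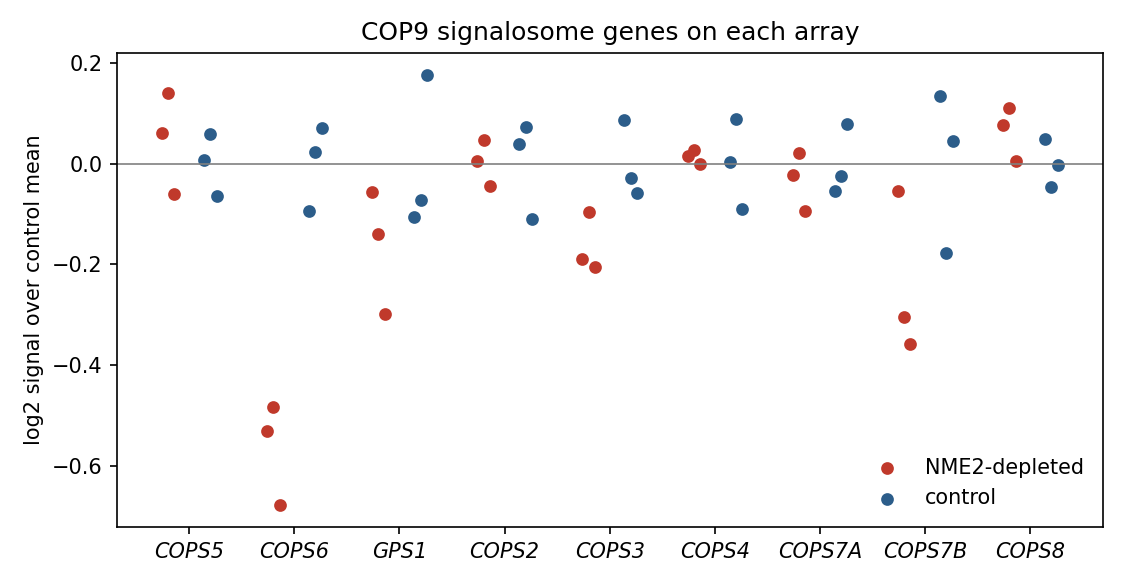
Log2 signal over the mean of the control arrays (vertical axis) for the brightest probe set of each of the 9 genes, with NME2-depleted arrays in red left of control arrays in blue. Each point is 1 array. COPS6 lies at -0.68 to -0.48 on NME2-depleted arrays, below every point of the other 8 genes.

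The genes next to COPS6 on chromosome 7, chosen after values were seen, are given for comparison. MCM7, a subunit of the replicative helicase that adjoins COPS6, differed by -0.21 (SE 0.11, limma adjusted p = 0.461) in its brighter probe set, with means of 1012 ± 42.4 in NME2-depleted and 1178 ± 180 in control cells (SD, n = 3 each). Its second probe set differed by -0.40 (SE 0.12, limma adjusted p = 0.198), and in both every NME2-depleted array lay below every control array. Further along, AP4M1 differed by -0.04 (SE 0.15, limma adjusted p = 0.938) and TAF6 by -0.14 (SE 0.08, limma adjusted p = 0.514). The zinc finger gene ZNF3 on the other side differed by -0.02 (SE 0.13, limma adjusted p = 0.968). Of these neighbours none passed the threshold.

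The genes that deposit NEDD8 and those the signalosome acts on were described from 7 lists, with 83 of 90 listed genes measured. No gene of the 83 passed the limma threshold, against a background of 0.540% of all genes tested. At an unadjusted p under 0.05, limma gave 5 lower and 3 higher, against 15.0% of all genes, and the methods' t-test, also unadjusted, gave 3 lower and 3 higher, against 12.9% of all genes. Of the 83, 39 had a negative and 44 a positive difference, with a median of 0.01, beside a median of 0.00 and 49.8% negative over all genes tested. Each gene stands by its brightest probe set, and of the 51 listed genes with several tested probe sets, 26 had at least 1 of the opposite sign.

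NEDD8 and its conjugation enzymes (11 of 12 measured, all but UBE2M) had a median log2 difference of 0.03, with 5 negative and 6 positive. The closest to the threshold was RNF7, the RING protein that pairs with CUL5. It read 4363.6, 4304.4 and 4095.2 on NME2-depleted arrays and 4884.3, 5031.4 and 4828.4 on control arrays, a difference of -0.21 (SE 0.07, limma adjusted p = 0.206). The NEDD8-conjugating enzyme UBE2F, which works with RNF7, differed by -0.18, and the ligation co-factors DCUN1D3 and DCUN1D1 by -0.23 and 0.14. UBE2F, DCUN1D3 and DCUN1D1 each also had a dimmer probe set of the opposite sign (UBE2F 0.23, DCUN1D3 0.22, DCUN1D1 -0.14). Other dimmer probe sets kept the sign for UBE2F (-0.27 and -0.09) and DCUN1D1 (0.15 and 0.31). All 4 tested probe sets of RNF7 were negative, the dimmer ones at -0.17, -0.23 and -0.12. By unadjusted limma and by the methods' t-test, 1 gene of this list was lower and 0 were higher.

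Cullin scaffolds (8 of 8) had a median of -0.03 and 0 genes under an unadjusted p of 0.05 by limma or by the methods' t-test. CUL4A, which carries DDB1-based receptors, differed by 0.26 (SE 0.12, limma adjusted p = 0.406), while CUL9, CUL1 and CUL3 differed by -0.18, -0.08 and 0.09. Other probe sets of CUL4A differed by 0.07, -0.35 and 0.45, and at 0.45 the groups did not overlap. A dimmer CUL1 probe set had the opposite sign (0.07), and a dimmer CUL3 one the same sign (0.20). The list of the ninth subunit, the other deneddylase, exchange factors and partners of the complex (10 of 11) had a median of -0.00. In that list COPS9, the small ninth subunit, differed by 0.02 and CAND1 by -0.02. The deneddylase SENP8, which also matures NEDD8, read 199.8, 207.8 and 197.2 on NME2-depleted arrays and 140.4, 177.8 and 152 on control arrays, a difference of 0.37 (SE 0.19, limma adjusted p = 0.432). PRKD1, CSNK2A1 and CSNK2B, kinases or kinase subunits linked to the complex, differed by -0.25, 0.09 and 0.08. Other probe sets disagreed in sign for SENP8 (-0.13) and for CAND1 (0.22 and 0.37, with -0.01 in another), with overlapping groups. They also disagreed for CSNK2A1, where the dimmest differed by -0.47 (SE 0.14, limma adjusted p = 0.196) with groups that did not overlap. In this list 0 genes were under an unadjusted 0.05 by limma and 1, higher, by the methods' t-test.

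Adaptors and substrate receptors (21 of 21) had 6 negative and 15 positive differences and a median of 0.09. The beta-TrCP receptor BTRC, which recognises phosphorylated beta-catenin, read 687.1, 550 and 563.5 on NME2-depleted arrays and 440.2, 430.8 and 504.4 on control arrays. Its difference was 0.38 (SE 0.13, limma adjusted p = 0.243). Its paralogue FBXW11 differed by 0.23, FBXW7, the receptor for cyclin E, by 0.32, and SKP2, the receptor for the inhibitor encoded by CDKN1B, by -0.40 (0.14 in its second probe set). By unadjusted limma 1 gene was lower and 3 were higher, and by the methods' t-test 0 and 2.

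Transcripts of cullin ligase substrates (13 of 16) had a median of -0.04. Their protein products are controlled by degradation, which these arrays do not measure. RHOB, a small GTPase removed through CUL3 ligases, read 2651.5, 2636.4 and 2729.7 on NME2-depleted arrays and 4802.2, 3317.4 and 3989.9 on control arrays. All NME2-depleted arrays lay below all control arrays, but the difference of -0.58 (SE 0.11) had a limma adjusted p of 0.058 and missed the threshold. CDT1, the replication licensing factor, differed by 0.67 (SE 0.34, limma adjusted p = 0.436). Its signals were dim and overlapped, at 140.8, 117.3 and 155.6 on NME2-depleted arrays and 106, 50 and 121.3 on control arrays. CDKN1A, the p21 inhibitor, differed by -0.27, and CTNNB1 (beta-catenin) by 0.22. By unadjusted limma 2 genes were lower and 0 higher, and by the methods' t-test 1 and 0.

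The relatives of the complex were compared as a further set. The proteasome lid (7 of 9) had a median of -0.01, and its PCI subunit PSMD3 read 1339.6, 1993.5 and 1552.5 on NME2-depleted arrays and 1885.6, 2031.2 and 2158.1 on control arrays. That difference was -0.33 (SE 0.13, limma adjusted p = 0.31). PSMD14, the lid's metalloprotease and the relative of COPS5, differed by -0.08, as did PSMD12, while PSMD11 differed by 0.02. By unadjusted limma and by the methods' t-test 1 lid gene was lower and 0 were higher. eIF3 (13 of 13) had a median of 0.01 and 0 genes under an unadjusted 0.05 by either test. EIF3M, a PCI subunit, differed by 0.12 (limma adjusted p = 0.463), EIF3B by -0.11, EIF3L by 0.11 and EIF3A by 0.11. EIF3F, an MPN subunit like COPS6, differed by 0.09. Other probe sets of EIF3M differed by 0.15, -0.37 and -0.28, and at -0.37 the groups did not overlap. EIF3B and EIF3F also had probe sets of the opposite sign, at 0.15 and -0.16.

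**Figure D4:**
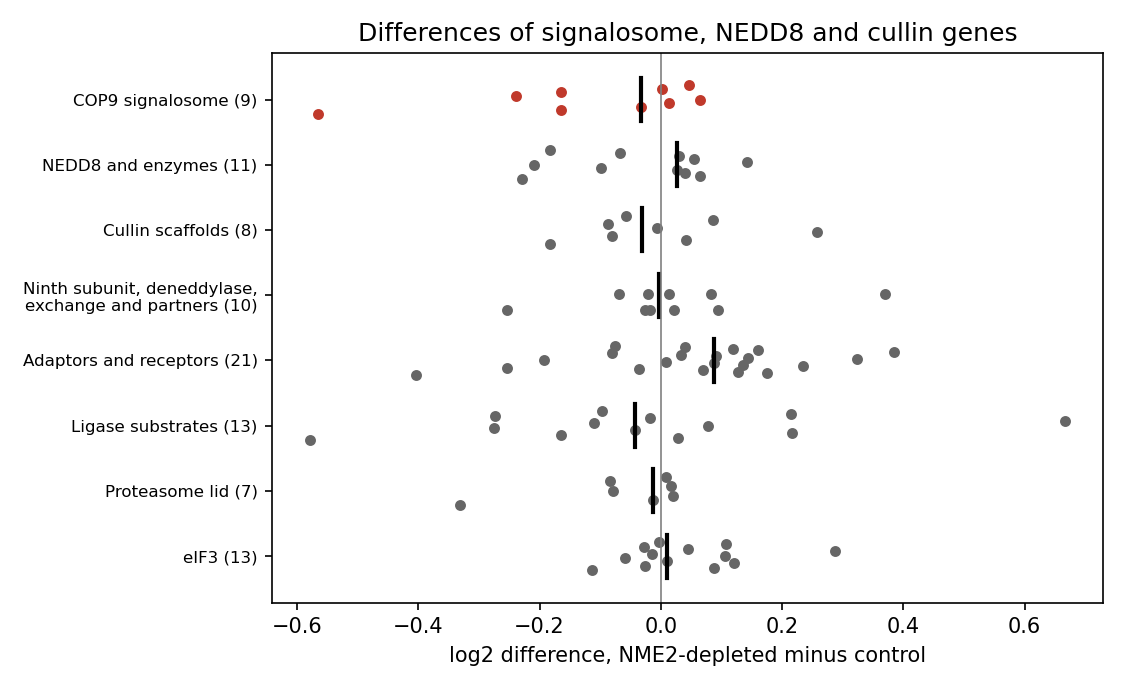
Log2 difference, NME2-depleted minus control (horizontal axis), of each gene's brightest probe set, for the 9 signalosome genes (red) and the 7 lists (grey), with the number of genes in brackets. Black lines are medians, which lie between -0.04 and 0.09 for all 8 sets, and vertical scatter within a row has no meaning. RHOB at -0.58 and COPS6 at -0.56 lie furthest left.

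The genes whose pattern over the 6 arrays was most like the mean of the 9 members were RSL1D1 (Pearson r = 0.99), a ribosome biogenesis factor, ECHS1 (r = 0.99), a mitochondrial enoyl-CoA hydratase, COMMD4 (r = 0.99), GEMIN2 (r = 0.99), a factor of the SMN complex, and TIGD5 (r = 0.98). The member mean itself was -0.02, -0.02 and -0.14 on the NME2-depleted arrays and 0.06, 0.05 and 0.06 on the control arrays. That mean includes COPS6, with a log2 difference of -0.56, while the median difference of the other 8 genes was -0.01. These correlations share the same 6 arrays and the same split between groups, so they are a description only.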

How the data were processed

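The authors converted RNA of 6 A549 samples to biotin-labelled cRNA, hybridised each to 1 Affymetrix HG-U133 Plus 2.0 array and, per the submitters' processing notes, used GCOS 1.1.1. The table deposited by the authors holds linear intensity values, 1 for each probe set and array. Every array was found scaled to a common trimmed mean (500.06 to 500.07, with 2% trimmed at each end). A shift shared by all transcripts would therefore not be seen. Probe-level scans were not used here. With arrays there is no read depth, and precision was limited by having 3 in each group. The series text and the methods name different suppliers of the siRNA.

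Of 54675 probe sets, 62 controls were left out. A floor of 1 was applied (0.327% of values lay under it) before log2, and no other normalization was used. Those 27307 whose mean log2 signal reached the median of all entered limma 3.58.1 (R 4.3.3, lmFit, eBayes with an intensity trend, two-sided, Benjamini-Hochberg over all of them, threshold 0.05). A check of the procedure on simulated data with planted differences required only that most of their signs came out right, and no result rests on it. Differences are NME2-depleted minus control, and a fold is 2 to the power of the difference. The platform annotation, old in part, gave 1 symbol for 41091 probe sets, several for 1801 and none for 11721. For a gene with several tested probe sets, the brightest was used. Promoter windows came from RefSeq (GRCh38.p14).

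Members and lists were chosen with earlier results of these data known. Named genes were all members, NME2, up to 4 genes of lowest p per list and the 5 of highest correlation with the member mean. COPS9, CAND1 and EIF3F, named for their role, and the neighbours of COPS6 fall outside that rule. Alternatives were quantile normalization, median centring, an offset of 16 before log2, other filters, removal of shared probe sets, other models of the variance, weighted arrays, the replicate block, each array left out, the methods' t-test and averaging over a gene's probe sets.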

Additional observations from a re-analysis of the deposited data

How the results depend on the processing

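Both COPS6 differences kept their sign under every alternative run, from -0.61 to -0.51 for 201405_s_at (15 alternatives) and from -0.59 to -0.46 for 213504_at (16). In both, every NME2-depleted array lay below every control array, so leaving out an array could not turn the sign. The family was chosen on these values, so the kept sign is a description only. The number of member probe sets past the threshold, 2, was 1 with no filter and 1 with shared probe sets left out, 0 with no intensity trend, 4 by the unadjusted methods' t-test, 0 by the same after Benjamini-Hochberg, and 0 to 1 with each array left out. The count over all tested probe sets, 108, was 30 with no filter, 192 with the filter at the 75th percentile, 52 with shared probe sets left out, 0 with no intensity trend, 3060 by the unadjusted methods' t-test, 0 by that test after Benjamini-Hochberg, and 19 to 70 with each array left out. The NME2 difference of -2.78 did not pass with no intensity trend or by the methods' t-test after Benjamini-Hochberg, where it was again -2.78. The cause of these changes was not tested. The member median over probe sets, -0.03, was -0.104 to -0.00118 with each array left out, -0.104 being without control replicate 3. The median over member genes was -0.0803 after median centring, where that of all tested probe sets was -0.0373. COPS2 differed by 0.46 with shared probe sets left out and by 0.23 as a mean of probe sets, and COPS8 by -0.03 in each of these, and COPS7B by -0.10 with shared probe sets left out, since other probe sets then stand for the gene. Leaving out control replicate 3 turned the sign of COPS2 (-0.05), COPS4 (-0.03) and COPS7A (0.01), as leaving out NME2-depleted replicate 2 did for COPS2 (-0.02). By the unadjusted methods' t-test 1 gene passed in each of the NEDD8, ninth subunit, substrate and lid lists and 2 among adaptors. In the substrate list 1 gene passed after median centring and 1 at the 75th percentile, and 0 to 1 with each array left out (1 without control replicate 2).

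Same-numbered arrays deviated together only weakly (correlations of 0.11, 0.08 and 0.07), although every array correlated best with its own number, so the numbers were not taken as pairs. With the replicate block 464 probe sets passed over all, 2 among the members and 2 in the substrate list.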
